A study of Mus musculus with 6 samples.

Results

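The guanylate-binding proteins are a family of interferon-inducible GTPases, and the 8 genes described here are the rows of the deposited table of 55335 genes whose symbols are Gbp2, Gbp3, Gbp4, Gbp5, Gbp6, Gbp7, Gbp8 and Gbp9. All 8 were found. Their RNA was measured by RNA sequencing in bone marrow-derived macrophages, which are macrophages grown out of mouse marrow in culture. The marrow came from male wildtype C57BL/6 mice of 6 to 8 weeks and 22 to 25 g, and cells were used after 6 days of culture. All 6 samples received, for 4 h and at a 1:1 ratio, conditioned medium (CM), which is medium taken from pancreatic acinar cells after 5 h with 200 nM caerulein, a peptide that overstimulates these cells. In the CM group, 3 samples, nothing else was added. In the CM + 4OI group, also 3 samples, the medium contained 4-octyl itaconate (4OI) at 200 µM, an ester of the macrophage metabolite itaconate that enters cells. The labels call the 3 samples of a group independent cultures but do not say whether they came from separate mice, so p-values measure the spread between cultures. No macrophages kept in plain medium are part of the comparison, so all levels are levels under conditioned medium. The series title names the STING pathway of DNA sensing and the NRF2 antioxidant pathway, and the comparison of CM + 4OI with CM asks which transcripts differ once 4OI is added.

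Guanylate-binding proteins are large GTPases of the dynamin superfamily. They bind GTP through a conserved loop, assemble on the membranes of intracellular bacteria and parasite vacuoles, and help to expose bacterial lipopolysaccharide to the inflammatory caspase encoded by mouse Casp4, also called caspase-11. Interferons induce them through transcription factors such as IRF1, and their promoters are known for interferon-stimulated response elements (ISRE) and gamma-activated sites (GAS). In macrophages they are among the most strongly inducible genes of the interferon response.

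The genes lie in 2 clusters of the mouse genome (mm10, the same assembly as GRCm38, positions from GENCODE release M21). Gbp5, Gbp7, Gbp3 and Gbp2 lie in this order on the plus strand of chromosome 3, with Gbp2b between Gbp3 and Gbp2. Gbp8, Gbp9, Gbp4 and Gbp6 lie on the minus strand of chromosome 5, with Gbp10 and Gbp11 nearby. The promoters of the chromosome 3 cluster are shown because its 4 members were all lower with 4OI and had entries in the promoter table used. RefSeq promoter sequences of GRCm38.p6 were matched for Gbp2, Gbp3, Gbp5 and Gbp7 and for their neighbour Gbp2b, but Gbp4, Gbp6, Gbp8 and Gbp9 were not matched. Each sequence below runs 5′ to 3′ on the plus strand from 250 bases before to 50 bases after the RefSeq start of the gene, and the capitals mark matches to the ISRE core, searched on both strands as GAAA, any 2 bases, and GAAA.
Gbp5: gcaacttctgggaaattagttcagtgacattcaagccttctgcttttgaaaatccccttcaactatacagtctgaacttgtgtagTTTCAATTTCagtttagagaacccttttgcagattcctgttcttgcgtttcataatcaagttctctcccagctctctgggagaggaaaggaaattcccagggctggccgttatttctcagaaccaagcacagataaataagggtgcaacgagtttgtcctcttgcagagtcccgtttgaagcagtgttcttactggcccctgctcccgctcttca
Gbp7: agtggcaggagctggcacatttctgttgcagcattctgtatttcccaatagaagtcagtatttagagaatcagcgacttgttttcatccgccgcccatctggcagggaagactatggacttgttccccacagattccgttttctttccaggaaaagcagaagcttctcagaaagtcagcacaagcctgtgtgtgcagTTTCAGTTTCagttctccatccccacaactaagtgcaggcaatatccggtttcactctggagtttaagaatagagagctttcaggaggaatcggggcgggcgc
Gbp3: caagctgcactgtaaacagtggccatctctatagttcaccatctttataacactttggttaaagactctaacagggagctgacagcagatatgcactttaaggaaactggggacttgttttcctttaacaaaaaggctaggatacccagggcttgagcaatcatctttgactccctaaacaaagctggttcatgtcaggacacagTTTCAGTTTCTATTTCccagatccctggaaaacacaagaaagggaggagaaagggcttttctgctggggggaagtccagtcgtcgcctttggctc
Gbp2b: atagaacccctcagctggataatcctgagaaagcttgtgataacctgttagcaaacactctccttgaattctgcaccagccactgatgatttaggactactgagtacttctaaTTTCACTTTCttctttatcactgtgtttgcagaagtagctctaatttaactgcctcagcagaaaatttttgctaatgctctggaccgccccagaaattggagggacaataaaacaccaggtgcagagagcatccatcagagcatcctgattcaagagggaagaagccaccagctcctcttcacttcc
Gbp2: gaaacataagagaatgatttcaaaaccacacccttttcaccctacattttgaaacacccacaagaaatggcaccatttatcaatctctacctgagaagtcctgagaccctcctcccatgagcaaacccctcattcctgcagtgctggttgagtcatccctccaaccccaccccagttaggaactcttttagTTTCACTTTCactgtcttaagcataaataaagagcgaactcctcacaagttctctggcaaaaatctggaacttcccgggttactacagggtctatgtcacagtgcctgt
They lie at chr3:142496684-142496983 for Gbp5, chr3:142530086-142530385 for Gbp7, chr3:142559794-142560093 for Gbp3, chr3:142594597-142594896 for Gbp2b and chr3:142620413-142620712 for Gbp2.

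Each of these 5 sequences held the ISRE core, whereas 1131 of 32851 mouse promoters of the same length (3.44%) did. All matches were on the minus strand, so they are written above as their reverse complement. The match began 53 bases before the start site in Gbp7, 59 in Gbp2, 137 in Gbp2b and 165 in Gbp5. Gbp3 had 2 matches that overlap each other, beginning 45 and 39 bases before the start. The RefSeq table holds a second start for Gbp3, and its window had no match. The GENCODE models of Gbp2 and Gbp5 begin upstream of the RefSeq starts, at positions 142620602 and 142493978, so the matches of both genes lie within those models. The GAS core, searched as TTCNNNGAA on both strands, was found in Gbp5 and Gbp7, with 2 matches in each, and in 8.30% of all promoters. An NF-kB motif was found in Gbp5 and Gbp2 and in 8.46% of all promoters. No ISRE match overlapped a match of another motif. A match is a description of letters and not of binding.

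The coding sequences of the GTP-binding loop show how close the members of a cluster are to each other. They were read from GENCODE transcripts, in the longest open reading frame of each gene, and the capitals mark the 8 codons of the loop (glycine, any 4 residues, glycine, lysine, serine or threonine).
Gbp2: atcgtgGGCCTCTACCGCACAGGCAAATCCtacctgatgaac
Gbp5: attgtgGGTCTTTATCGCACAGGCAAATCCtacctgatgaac
Gbp7: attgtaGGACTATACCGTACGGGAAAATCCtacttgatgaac
Gbp3: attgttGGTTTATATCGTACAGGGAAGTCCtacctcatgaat
Gbp4: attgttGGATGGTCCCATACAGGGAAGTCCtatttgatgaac
Gbp9: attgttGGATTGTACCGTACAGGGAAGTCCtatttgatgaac
Gbp6 and Gbp8 had the same 42 bases as Gbp9. Over the whole coding sequence, members on chromosome 5 were 90.2% to 92.9% identical over aligned bases, while members on chromosome 3 were 64.8% to 78.5% identical to each other. Gbp2 and Gbp5 had a cysteine codon at the fourth position from the end, the place of a prenylated cysteine, and the other 6 members did not.

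Identity this high matters where reads are assigned to genes. Gbp6 shared 76.5% of the 150-base windows of its transcript with the overlapping model Gm43302 and 30.3% with Gbp10, so its value is uncertain. Gbp4 shared 0.0456% of its windows with Gbp11, and Gbp2, Gbp3, Gbp5, Gbp7, Gbp8 and Gbp9 shared none with any other gene. Windows were taken only from the transcript with the longest open reading frame of each gene, so exons outside it were not checked. Gbp7 has exons that coincide over 11.3% of their length with Gm43802 on the same strand, which was at 0.127 ± 0.0182 FPKM with conditioned medium alone and at 0.1096 ± 0.0194 when 4OI was present (values after ± are SD throughout, with n = 3 per group). The unit FPKM, which divides the fragments of a gene by its length and by the library's mapped total, is per length and can be compared between genes. Library depth was estimated from the smallest step between low values. On the estimates, 1 FPKM of a transcript of 2000 bases stands for 36.0 to 50.6 fragments per library.

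With 4OI added, the whole family was lower. In all 8 members every CM + 4OI sample lay below every CM sample, as in 17.8% of the 10468 genes tested. The summed FPKM of the 8 members was 607, 601 and 607 in CM replicates 1, 2 and 3 and 182, 164 and 168 in the same replicates of CM + 4OI. The sum thus fell 3.53-fold, from 605 ± 3.48 to 171 ± 9.47 FPKM, a difference far larger than either SD. An exact permutation test of the log2 sum, two-sided, gave p = 0.1, the smallest that 3 against 3 samples allow. Tests of single genes used limma on log2(FPKM + 1) over the 10468 genes with a mean of at least 1 FPKM, with Benjamini-Hochberg adjustment over all of them and a call at an adjusted p under 0.05. Gbp8 lay under that mean, and all 7 members that were tested were called lower, against 13.2% of all tested genes. All 7 also had a log2 fold change of -1 or lower, as did 1.78% of the tested genes. Their median log2 fold change was -1.62, beside 0.06 over all tested genes. In bulk RNA, fewer cells that express a gene cannot be told apart from less RNA per cell.

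**Figure D1:**
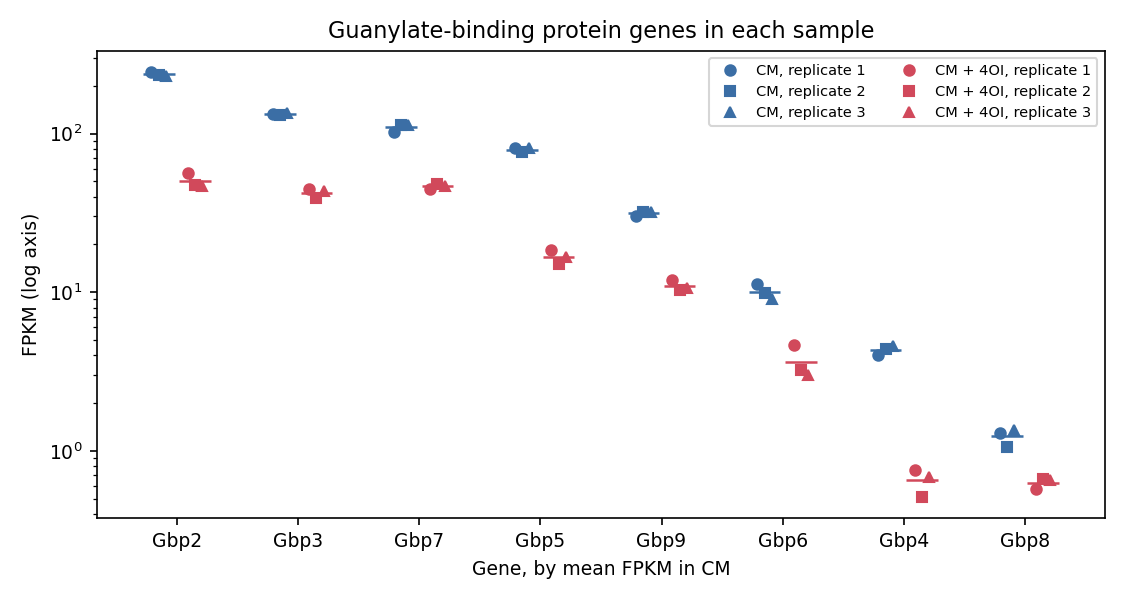
FPKM of the 8 Gbp genes in each sample, on a log axis, with genes in the order of their CM mean. Blue points are CM and red points CM + 4OI, the 3 marker shapes are replicates 1 to 3, and short lines are group means. In every gene the 3 red points lie below the 3 blue points, and the gap is narrowest for Gbp8.

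Gbp2 and Gbp5, the members with the cysteine codon, fell by nearly equal factors. Gbp2 (ENSMUSG00000028270, chromosome 3, 142620602 to 142638008) encodes a protein recruited to the vacuoles of Toxoplasma and to cytosolic bacteria. It was at 244, 233 and 232 FPKM in CM replicates 1, 2 and 3 and at 56.0, 47.4 and 46.4 FPKM with 4OI. By limma its log2 change was -2.22 (SE 0.076, adjusted p = 1.48e-05), the 19th lowest of the 10468 genes. Gbp5 (ENSMUSG00000105504, 142493978 to 142522344) encodes a protein linked to inflammasome assembly. It was at 80.6, 76.3 and 80.8 FPKM in CM and at 18.4, 15.1 and 16.6 with 4OI, a 4.74-fold fall (log2 fold change -2.18, SE 0.073, limma adjusted p = 1.48e-05). The 2 genes are the outermost members of the chromosome 3 cluster, and the ratio of Gbp2 to Gbp5 FPKM was 2.98 ± 0.0989 in CM and 2.99 ± 0.178 with 4OI. This ratio was chosen after the values were seen, and the exact permutation test of its logarithm gave p = 0.9.

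The 2 inner members of that cluster fell less. Gbp3 (ENSMUSG00000028268, 142560026 to 142573209) was at 132, 130.2 and 134 FPKM in CM and at 44.8, 39.0 and 43.2 with 4OI. It fell 3.13-fold (log2 fold change -1.62, SE 0.057, limma adjusted p = 1.69e-05). Gbp7 (ENSMUSG00000040253, 142530342 to 142550149), whose protein has been linked in mice to assembly of the phagocyte oxidase, was at 102, 114 and 113 FPKM in CM and at 44.8, 47.9 and 46.9 with 4OI. Its 2.35-fold fall was the smallest of the tested members (log2 fold change -1.21, SE 0.054, limma adjusted p = 3.43e-05). Over same-numbered samples the Gbp7 ratio of CM to CM + 4OI ran from 2.28 to 2.40, and that of Gbp2 from 4.36 to 5.00, so the 2 genes did not overlap. The ratio of Gbp2 to Gbp7 FPKM was 2.39, 2.05 and 2.06 in CM and 1.25, 0.989 and 0.99 with 4OI (exact permutation p = 0.1, the smallest possible). This pair was chosen after the values were seen, so the p-value is not an independent test of a difference between the 2 genes.

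On chromosome 5 the levels were lower and the falls uneven. Gbp9 (ENSMUSG00000029298, 105077630 to 105139539) led this cluster, with 30.3, 32.2 and 31.9 FPKM in CM and 12.0, 10.3 and 10.6 with 4OI. It fell 2.87-fold (log2 fold change -1.44, SE 0.063, limma adjusted p = 3.25e-05). Gbp6 (ENSMUSG00000104713, 105270702 to 105293698), whose protein has been linked to defence against mycobacteria in mice, was at 11.3, 9.86 and 9.02 FPKM in CM and at 4.68, 3.25 and 3.01 with 4OI. It fell 2.76-fold (log2 fold change -1.26, SE 0.15, limma adjusted p = 0.00110). Gm43302, the model that overlaps it, also fell, from 4.23 ± 1.19 to 1.77 ± 0.137 FPKM (limma adjusted p = 0.00848). Both rows were lower in every CM + 4OI sample than in every CM sample. Because the models share sequence, the same reads could fill both rows, so a fall of each gene is not shown separately.

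Gbp4 (ENSMUSG00000079363, 105115767 to 105139586), whose protein has been described in mice as an inhibitor of the interferon factor IRF7, fell by the largest factor in FPKM. It was at 4.00, 4.41 and 4.61 FPKM in CM and at 0.755, 0.515 and 0.688 with 4OI. The ratio of means was 6.65, and over same-numbered samples the ratio ran from 5.30 to 8.57. On the log2(FPKM + 1) scale, which understates the change of low genes, its log2 fold change was -1.69 (SE 0.083, limma adjusted p = 4.82e-05). At the estimated depths, these values stand for about 376 to 491 fragments in a CM library and 51 to 87 in a CM + 4OI library. Gbp8 (ENSMUSG00000034438, 105014150 to 105139540) was the lowest member, at 1.29, 1.05 and 1.35 FPKM in CM and at 0.575, 0.664 and 0.654 with 4OI. That is about 60 to 69 and 36 to 38 fragments. Its ratio of means was 1.95, the smallest of the family. Its mean was under 1 FPKM, and in a fit without the filter on low values its limma adjusted p was 0.0259. The models of Gbp4, Gbp8 and Gbp9 overlap in 60 or 61 exon bases, at most 1.77% of any of the 3.

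The order of the levels changed with the unequal falls. In CM the order was Gbp2, Gbp3, Gbp7, Gbp5, Gbp9, Gbp6, Gbp4 and Gbp8, and no 2 neighbours in it had overlapping ranges. With 4OI, Gbp7 stood above Gbp3, but in replicate 1 they were nearly equal, at 44.83 and 44.82 FPKM. The range of Gbp2 then overlapped that of Gbp7, at 46.4 to 56.0 and 44.8 to 47.9 FPKM. The ranges of Gbp4 and Gbp8 overlapped as well, at 0.515 to 0.755 and 0.575 to 0.664 FPKM. Thus the CM samples had 1 leading gene, while 3 genes were between 39.0 and 56.0 FPKM in the samples with 4OI.

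Shares of the summed member FPKM do not depend on how the libraries were scaled. Gbp2 made up 40.3%, 38.8% and 38.2% of the sum in CM and 30.8%, 28.9% and 27.6% with 4OI. Gbp7 made up 16.9%, 18.9% and 18.6% in CM and 24.6%, 29.2% and 27.9% with 4OI. The share of Gbp2 was thus different by -10.01 percentage points and that of Gbp7 9.14 points higher. Gbp5 went from 13.1% ± 0.348 to 9.73% ± 0.484 and Gbp4 from 0.718% ± 0.0520 to 0.379% ± 0.0567, while Gbp3 went from 21.9% ± 0.235 to 24.7% ± 0.963. Gbp9 went from 5.21% ± 0.186 to 6.38% ± 0.171 and Gbp8 from 0.204% ± 0.0249 to 0.370% ± 0.0473. The groups did not overlap for these 7 genes, and overlapped for Gbp6. Exact permutation tests of the shares gave p = 0.1 for each of the 7, the smallest possible, and 0.114 after Benjamini-Hochberg adjustment over the 8 members. For Gbp6 the share was 1.67% ± 0.191 in CM and 2.11% ± 0.405 with 4OI (exact permutation p = 0.2). Within same-numbered samples it was higher with 4OI in 3 of 3 pairs, from 1.87% to 2.57%, from 1.64% to 1.98% and from 1.49% to 1.79%. A pairing of these samples is not established, and the value of Gbp6 itself is uncertain because of shared sequence.

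**Figure D2:**
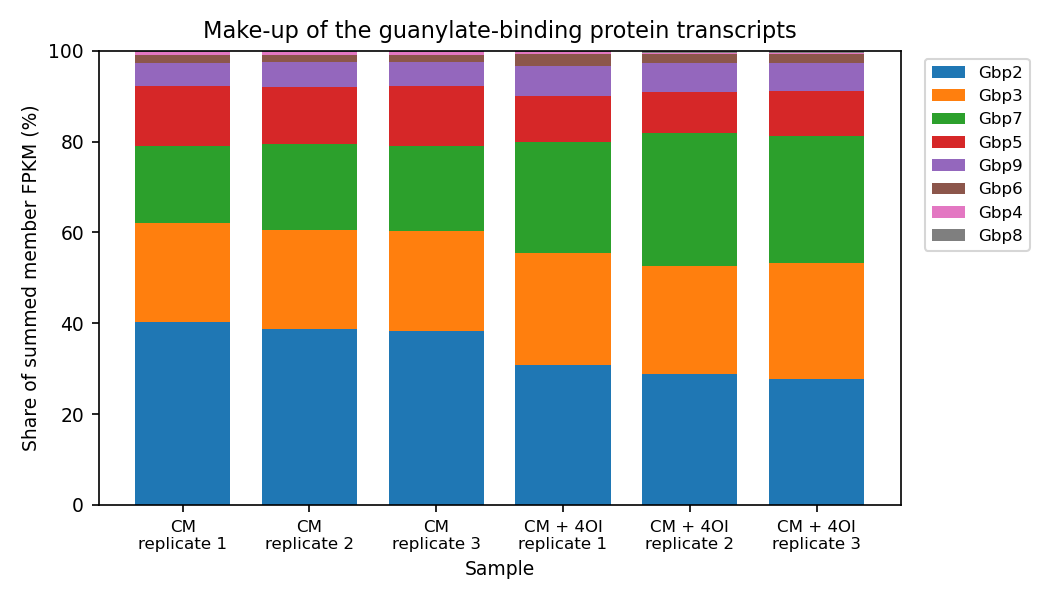
Share of each Gbp gene in the summed FPKM of the 8 genes, in percent, as 1 stacked bar per sample. The Gbp2 segment (blue) is 38.2% to 40.3% in the 3 CM bars and 27.6% to 30.8% in the 3 CM + 4OI bars, and the Gbp7 segment (green) is 16.9% to 18.9% and 24.6% to 29.2%.

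The clusters differed as wholes by a smaller amount. Members on chromosome 3 together fell 3.58-fold, from 557 ± 3.82 to 156 ± 7.67 FPKM. Members on chromosome 5 fell 2.97-fold, from 47.1 ± 0.334 to 15.9 ± 1.83 FPKM. The ratio of the chromosome 3 sum to the chromosome 5 sum was 11.9, 11.6 and 11.9 in CM and 9.12, 10.1 and 10.2 with 4OI. Groups did not overlap, and the exact permutation test of the log2 ratio gave p = 0.1. The spread within each cluster was wider than the difference between them: the ratios of means ran from 2.35 to 4.74 on chromosome 3 and from 1.95 to 6.65 on chromosome 5.

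Among the CM + 4OI samples, the 7 tested members had the same highest replicate, with Gbp7 as the exception. With 4OI, replicate 1 had the highest level of Gbp2, Gbp3, Gbp4, Gbp5, Gbp6 and Gbp9. It had the lowest level of Gbp7 and of Gbp8. In CM the tested members did not share a highest replicate. There, replicate 1 was highest for Gbp2 and Gbp6, lowest for Gbp4, Gbp7 and Gbp9, and in between for Gbp3 and Gbp5. After the group means were subtracted, the deviations of the members from the family's mean profile correlated over the 6 samples with r from 0.675 (Gbp4) to 0.922 (Gbp9) for 6 members and with r = -0.495 for Gbp7. These values are descriptions, since the 6 deviations cancel within groups and the profile includes the members.

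The remaining Gbp rows of the table were low. Gbp10, which is 98.4% identical to Gbp6 over its coding sequence, was at 1.31, 1.38 and 1.45 FPKM in CM and at 0.529, 0.357 and 0.39 with 4OI, and was not tested because of its mean. Gbp11, a polymorphic pseudogene, was at 0.0722 to 0.157 FPKM in CM and at 0.0146, 0 and 0 with 4OI. Gbp2b, whose protein is called GBP1, was listed at 0 in 5 libraries and at 0.0394 FPKM in CM replicate 3, although its promoter holds an ISRE core. The pseudogene Gbp2-ps was listed at 0 in all 6 libraries.

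Of the 12 nearest tested neighbours outside the clusters, 1 fell. On chromosome 3 none of the 6 nearest tested neighbours was called (Tspan5, Rap1gds1 and Pdlim5 on one side, Gtf2b, Pkn2 and Lmo4 on the other), with log2 fold changes of -0.35 to 0.48. On chromosome 5, Lrrc8c, a subunit of the volume-regulated anion channel, fell, with means of 5.87 FPKM in CM and 3.87 with 4OI (log2 change -0.50, limma adjusted p = 7.50e-04). Pkd2 and BC005561 rose (log2 fold changes 0.29 and 0.31), but each lost its call in 6 of 14 alternatives, among them the fits that dropped replicate 1 or 3 of CM, or replicate 2 of CM + 4OI, with limma adjusted p of up to 0.0750 and 0.103. The genes D930016D06Rik, Lrrc8b and Lrrc8d were not called. Over all tested genes 13.2% were called lower and 19.3% higher, so the counts among the neighbours are no result about them.

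**Figure D3:**
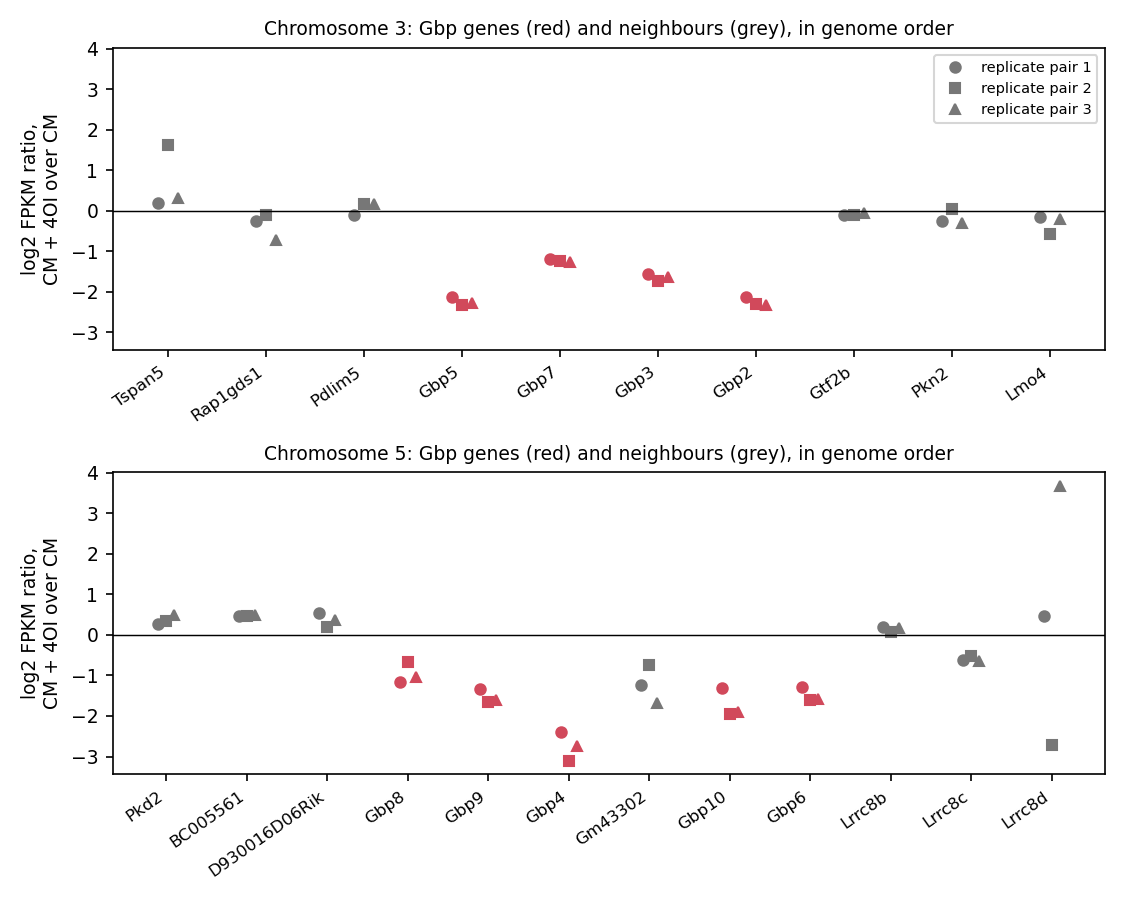
Log2 ratio of FPKM, CM + 4OI over CM, for each pair of same-numbered samples, with genes in genome order on chromosome 3 (top) and chromosome 5 (bottom). Gbp genes are red and the neighbours grey, marker shapes are replicate pairs, and the line marks no difference. All Gbp points lie between -0.67 and -3.10, the neighbours outside the clusters lie on both sides of 0, and Lrrc8d scatters from -2.71 to 3.68.

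Genes of interferon signalling, which lies upstream of the family, were lower with 4OI in 15 of 19 tested list members, and 0 rose, also at an unadjusted limma p under 0.05. Over all tested genes 13.2% were lower and 19.3% higher. With the replicate number as a block, Ifngr1, a chain of the interferon gamma receptor, was called higher (limma adjusted p = 0.0386). The list's median log2 fold change was -0.65. Of the ligands, Ifnb1, the interferon beta gene, was at 0.506, 0.619 and 0.296 FPKM in CM and at 0.0526, 0.262 and 0 with 4OI, and was not tested. Ifng, the interferon gamma gene, was listed at 0 in 5 libraries and at 0.0113 FPKM in CM + 4OI replicate 3. Irf1, a factor that binds the ISRE, fell 2.21-fold from 39.0 ± 2.47 to 17.6 ± 1.19 FPKM, and Irf7, the interferon factor, 1.91-fold from 136 ± 9.32 to 71.2 ± 7.79 FPKM. The inhibitors fell too: Socs1, which blocks JAK kinases, went 3.92-fold lower and Usp18, which removes ISG15 and blocks the type I receptor, 2.48-fold lower, from 134 ± 6.10 to 54.1 ± 3.51 FPKM.

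The immunity-related GTPases, which act beside the guanylate-binding proteins on the same vacuoles, fell in 10 of 12 tested list members and rose in 0. Over all tested genes 13.2% fell and 19.3% rose. The list's median log2 fold change was -0.82. Iigp1 (5.75-fold, from 25.7 ± 1.38 to 4.46 ± 0.918 FPKM), Tgtp1 (3.31-fold) and Tgtp2 (3.16-fold), effectors that load onto parasite vacuoles, fell most. 9930111J21Rik1 fell 1.88-fold from 30.0 ± 1.62 to 16.0 ± 1.01 FPKM. F830016B08Rik and Gm5431 were not called, and Gm5431 was at 31.9 FPKM in CM replicate 2 beside 67.8 and 67.5 in the other CM samples. The summed FPKM of the 12 genes was 903 ± 10.7 in CM and 478 ± 5.76 with 4OI, a 1.89-fold fall. The ratio of the Gbp sum to this sum was 0.667, 0.674 and 0.667 in CM and 0.377, 0.343 and 0.356 with 4OI. The groups were far apart compared with their spread, so the Gbp sum fell more than the sum of the immunity-related GTPases (exact permutation p = 0.1, the smallest possible). Of 10 list members with a RefSeq promoter, 7 had the ISRE core, as had 4.22% of the tested genes with such a promoter.

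Among other dynamin-like GTPases, the interferon-induced Mx1, Mx2 and Gvin1 fell and the other 4 tested members were not called. Mx1 fell 3.62-fold from 257 ± 21.4 to 71.0 ± 4.20 FPKM. Mx2 fell 2.48-fold from 45.6 ± 0.719 to 18.4 ± 0.838 FPKM, and Gvin1, a very large interferon-induced GTPase, 1.32-fold. Genes of prenylation and of GDP dissociation, which serve the membrane anchoring of small GTPases and of prenylated Gbp proteins, were called by limma in 0 of 8 tested members. At an unadjusted limma p under 0.05, 1 was lower and 3 were higher. Beside the calls in both of these lists, 13.2% of all tested genes were called lower and 19.3% higher. Gdi2, a GDP dissociation inhibitor of Rab proteins, was at 30.1 ± 3.59 FPKM in CM and 36.3 ± 1.26 with 4OI (limma adjusted p = 0.0574).

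Genes that act downstream of or with the Gbp proteins were in 3 lists. In the list of caspase-11 and inflammasome partners, 9 of 10 tested members fell and 0 rose (13.2% and 19.3% of all tested genes), with a median log2 fold change of -0.93. Il1b, the cytokine that caspase-1 matures, fell 6.55-fold from 8.84 ± 1.41 to 1.35 ± 0.643 FPKM. Mefv, which encodes pyrin, fell 2.52-fold, Pycard, the inflammasome adaptor, 2.30-fold, and Casp4 2.21-fold, from 13.4, 15.5 and 14.5 FPKM to 6.85, 6.71 and 6.06. Of the galectins that mark damaged vacuoles, Lgals8 and Lgals9 fell, 1.38-fold and 1.48-fold, and Lgals3 was not called. Gbp proteins need the machinery of ATG8 conjugation to reach parasite vacuoles. The list of ATG8 conjugation and targeting genes had 4 genes that rose and 2 that fell among 13 tested, with a median log2 fold change of 0.09. These counts are near the shares of all tested genes, 19.3% higher and 13.2% lower, and are no result about the list. The cargo receptor Sqstm1 rose 3.00-fold from 160.5 ± 8.37 to 482 ± 30.9 FPKM, and Gabarapl1, an ATG8 protein, 2.08-fold. Atg5 rose 1.22-fold, from 17.1 ± 0.425 to 20.9 ± 0.472 FPKM. Trim21, a ubiquitin ligase that interferons induce, fell 1.82-fold from 27.9 ± 1.00 to 15.4 ± 0.202 FPKM.

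**Figure D4:**
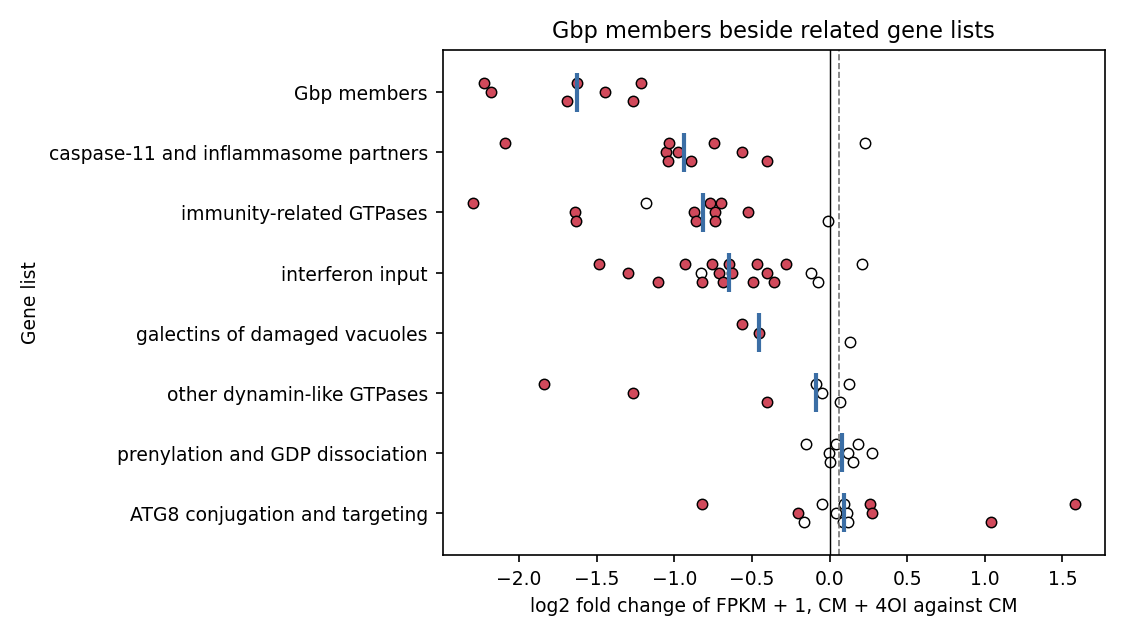
Each point is the log2 fold change of FPKM + 1, CM + 4OI against CM, for every tested gene of the Gbp family and of 7 related lists. Filled points passed the test and open points did not, blue bars are list medians, and the dashed line is the median of all tested genes. The Gbp median is at -1.62, and the 7 lists have medians from -0.93 to 0.09.

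The genes most like the family over the 6 samples, by Pearson correlation of log2(FPKM + 1) with the mean of the 7 tested members, were Mmp13, Tlr9, Ifit1bl1, Ifih1 and Il13ra1, with r of 0.9993 to 0.9998. Such values were common, since 265 tested genes, Gbp genes included, reached r = 0.99 and the groups set most of the variation. Mmp13, a collagenase, was at 96.5 FPKM in CM and 28.9 with 4OI, and Tlr9, the receptor of unmethylated DNA, at 11.2 and 2.19 FPKM. Ifih1, the RNA sensor MDA5, was at 116 and 51.3 FPKM, Il13ra1, a receptor chain for IL-13, at 22.9 and 11.6, and Ifit1bl1, an interferon-response gene, at 182 and 15.4. After the group means were subtracted, Trir, Atp6v1g1, Dhx38, Mmp13 and Smug1 were closest, with r of 0.99 or more in each case except Smug1, at 0.9897.

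Across all tested genes with a RefSeq promoter, the ISRE core was present in 106 of 1018 genes called lower (10.4%) and in 210 of 6478 others (3.24%). No test was made of this difference. The ISRE core that the 4 matched members share was thus also present in a part of the other genes that fell, and absent from most of them. Besides the immunity-related GTPases, it was in 4 of 18 interferon signalling genes with a promoter, 1 of 10 genes of the ATG8 list and 1 of 3 galectins. It was in 0 of 9 inflammasome partners, 0 of 5 other dynamin-like GTPases and 0 of 5 prenylation genes.

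Markers of macrophages were high in all samples, with a summed FPKM of the 10 genes of 10913 to 11734 in CM and 11089.9 to 11776 with 4OI. Lyz2 alone made up most of these sums, with means of 8448 FPKM in CM and 8832 with 4OI. Mertk, Fcgr1 and Spi1 of that list were called lower, beside 13.2% of all tested genes, and the other 7 were not called. The sums of fibroblast, neutrophil and acinar markers overlapped between groups, at 6.11 to 54.4 and 8.42 to 31.2 FPKM for fibroblasts, 39.6 to 72.0 and 46.2 to 56.2 for neutrophils and 7.68 to 12.9 and 8.65 to 15.8 for acinar cells. The highest fibroblast sum of each group was in replicate 2, with Col1a1 at 29.0 FPKM in CM and 16.6 with 4OI. The acinar marker Cela1 was called higher, from 1.66 ± 0.0592 to 2.28 ± 0.266 FPKM (limma adjusted p = 0.0278). Ly6g and Prss1 were at 0 in all samples. T and NK cell markers summed to 0 to 0.0271 FPKM in CM and 0.0113 to 0.0864 with 4OI. Sums of dendritic cell markers were 0.701 to 0.820 FPKM in CM and 0.466 to 0.481 with 4OI, with Flt3 at 0 in all samples. For B cell markers they were 0.624 to 0.672 and 0.511 to 0.622 FPKM. Both moved with the groups at these low levels, and their part in the result was not tested.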

How the data were processed

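RNA of 6 macrophage cultures, 3 per group, was sequenced as 150-base pairs, per the labels. The authors deposited 1 table of FPKM values for all samples; reads were mapped to mm10 and FastQC 0.11.2 was used, per the submitters' processing notes. The aligner is not given in the sources used here, nor is the FPKM program or any setting for strand. Raw counts were not analysed here, so counting error is known only through the estimated depths.

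From these values, limma 3.58.1 (R 4.3.3) tested log2(FPKM + 1), with a variance trend, over genes with a mean of at least 1 FPKM. Adjustment was by Benjamini-Hochberg and calls were made at 0.05. The tests across genes were tested on simulated data. Single sums, shares and ratios were compared by exact two-sided permutation over 20 arrangements. Gene models were GENCODE M21, in which 99.7% of the table's gene identifiers were found. Promoter motifs were searched in RefSeq sequences.

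The members and lists were chosen with earlier results of these data known. Named genes were all Gbp rows, the cluster neighbours, up to 4 called members of each list with the largest log2 change (or, with none called, the 2 with the highest level), Irf1, Ifnb1, Ifng and Casp4, and the 5 genes closest in pattern by each measure. Some genes that this rule names are not reported here. Other genes named, and the ratios between single members, were chosen after their values were seen. Deviations from group means correlated between same-numbered samples with r of 0.344, 0.427 and 0.185 over 10468 genes. Between differently numbered samples r was -0.343 to 0.0262. What same-numbered samples have in common is not known, so a pairing is not established. The main fit and the permutation tests treated the samples as unpaired. Alternatives were other pseudocounts, filters and scalings, no variance trend, a replicate block, and samples left out.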

Additional observations from a re-analysis of the deposited data

How the results depend on the processing

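The 7 tested members were called lower in 104 of 104 fits under the alternatives, and the highest adjusted p from limma was 0.0196, for Gbp6 without replicate 2 of both groups. The number of members called lower was 6 at a mean of at least 5 FPKM, where 6 were tested, and 8 without a filter or without CM + 4OI replicate 1. With the replicate block 7 members were lower and no member's call changed. In that fit 2336 genes were higher and 1523 lower, and 1 interferon signalling gene was called higher. With median-of-ratios scaling 1309 genes were higher and 1623 lower, so 44.6% of calls were higher instead of 59.3%, and 1 prenylation gene was lower. Prenylation genes called higher numbered 1 with quantile normalization and 3 at a mean of at least 5 FPKM. Without replicate 2 of both groups 1110 genes were higher and 1 ATG8 gene was lower. Leaving out 1 sample at a time, 1302 to 1868 genes were higher (1302 without CM + 4OI replicate 2) and 1154 to 1252 lower. The log2 ratio of the member sums was -1.86 to -1.79 with 1 sample left out, -1.90 with median-of-ratios scaling and -1.60 without Gbp2. The log2 change of the chromosome 3 to chromosome 5 ratio was -0.30 to -0.21, and that of the Gbp to immunity-related GTPase ratio -0.94 to -0.87. Pkd2 and BC005561 each lost their call in 6 of 14 alternatives. Adding Gbp10, Gbp11 and Gbp2b, a choice made after seeing the data, gave -1.82 for the sum. The causes were not tested. Depth limits Gbp8 and the other Gbp rows most.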
